A study of Mus musculus with 16 samples.

Results

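The translation initiation and elongation factors on the array were taken as the genes whose symbol begins with Eif or Eef and a digit, apart from the Eif2ak kinases, Eif2s3x and Eif2s3y. Only probe sets that the platform annotation gives to a single gene were used, and each gene was read by its brightest probe set. The rule found 43 genes with 60 probe sets, of 8251 genes so named on the array. Of the 43 genes, 29 had 1 probe set and 14 had several. The symbol rule also admits Eef1akmt1, which encodes a methyltransferase acting on eEF1A, and Eif2a, which encodes a factor distinct from the alpha subunit of eIF2. Eif4g1, Eif2s1, Eif2b3 and Eif1 had no probe set of their own in that annotation and were not analysed here.

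The study concerns negative selection of thymocytes, the removal of developing T cells whose receptor recognises self. The cells were CD4+CD8+ (double-positive) thymocytes of fetal thymic organ culture, a method that keeps lobes of the fetal thymus alive outside the animal, and their total RNA was read on 16 Affymetrix mouse arrays. BDC2.5 mice carry a transgenic T cell receptor, cloned from a diabetogenic T cell, that is restricted by the MHC class II molecule of NOD mice. B6g7 mice are C57BL/6 mice that carry this MHC haplotype. The 6 groups were BDC2.5 on the B6g7 background without peptide (n = 3) and after 16 h of peptide (n = 3), the same 2 states of BDC2.5 on the NOD background (n = 3 each), and wild-type cells of both strains (n = 2 each). All groups shared the MHC haplotype and the organ culture. The peptide and its dose are not named in the labels, which also do not say whether wild-type cultures received any, give no age, and do not say whether arrays of 1 group came from separate animals. P-values therefore measure the spread between arrays, which may be technical.

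Translation begins when eIF2 carries the initiator tRNA to the small ribosomal subunit, eIF3 and the factors eIF1 and eIF1A hold that subunit open for scanning, and the eIF4 factors bring it to the capped end of the mRNA. eIF5 and eIF5B then allow the large subunit to join, eIF2B recharges eIF2 with GTP, and the eEF1 and eEF2 factors drive each step of elongation. Resting lymphocytes make little protein, and stimulation through the antigen receptor is known to raise translation, in mature T cells partly through mTOR and its target Eif4ebp1.

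None of the 43 genes passed the test in any of the 9 comparisons made. With all arrays, the peptide response in B6g7 gave a wider spread of estimates for the translation factors than that in NOD. In B6g7, Eif3c, Eif4ebp1, Eif5b and Eif2b5 were 0.52 to 0.73 higher on the log2 scale, and Eif1b was 0.67 lower. The same genes lay between -0.11 and 0.22 in NOD. The estimates named as higher in B6g7 were smaller without a single array, replicate 3 of the peptide group, as the values below show. That omission leaves replicate 3 without peptide among the controls. Without the last-numbered array of every group, which drops both, the median over the 43 genes in B6g7 was 0.06, against 0.09 with all arrays. Estimates then ran from -0.59 to 0.41 in B6g7, with 1 of 43 beyond 0.5. In NOD they ran from -0.36 to 0.64, with 3 of 43 beyond 0.5, so the wider spread in B6g7 was not kept.

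Data for all genes set the limits of these readings. The array medians lay between 54.7 and 59.1 in the deposited intensity units, and 9 translation factors had a mean signal below the mean of these medians: Eef1a2, Eef1g, Eef2k, Eif3f, Eif4e, Eif4ebp1, Eif4enif1, Eif4h and Eif5a. No filter on low signal was applied, so all 43 entered every count. The shares of all probe sets given beside these counts include dim probe sets and the further probe sets of a gene. The translation factors were counted by their brightest probe set only, so the shares are not like for like. The last-numbered array of each group (number 3 in the BDC2.5 groups, number 2 in the wild types) stood apart from the other arrays. These 6 arrays lay between 6.73 and 37.7 on the first principal component of the 3000 most variable probe sets, which held 57.9% of their variance, and the other 10 between -26.4 and 3.14. Their beta-actin signal at the 3' end exceeded that at the 5' end by 1.69 ± 0.25 on the log2 scale (SD, n = 6), against 2.67 ± 0.32 (SD, n = 10) in the others.

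All 10 measured markers of double-positive thymocytes, among them Cd4, Cd8a, Rag1 and Dntt, lay above the array medians. Their summed intensity ran from 16443 to 19713 in wild-type B6g7 and from 13106 to 13629 in BDC2.5/B6g7 without peptide. It ran from 7781 to 12126 with peptide in B6g7, and in NOD from 11750 to 15536 without and from 9948 to 11339 with peptide. In wild-type NOD it ran from 13562 to 18438. The sum hides opposite directions: with peptide 2 of 10 markers were higher in each strain, among them Cd3g (log2 difference 0.42 in B6g7, 0.19 in NOD). NOD minus B6g7 was -1.89 without and -2.02 with peptide for Cd8b1, and 1.17 and 0.93 for Cd3g. In bulk RNA, fewer cells of a type and less RNA per cell cannot be told apart. Of 10 measured markers of myeloid and dendritic cells only C1qa lay above the array medians, and their sum was 367 to 434 without and 457 to 486 with peptide in B6g7, against 372 to 439 and 368 to 398 in NOD. Markers above the array medians also numbered 4 of 5 for B cells (summed intensity 364 to 528 over the BDC2.5 groups), 5 of 7 for mesenchyme and endothelium (628 to 800), 3 of 6 for thymic epithelium (253 to 296), 1 of 2 for erythroid cells and 1 of 3 for NK and innate lymphocytes. The part of these markers in the differences between groups was not tested.

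Promoter sequence was available from RefSeq (GRCm38.p6) for 35 of the 43 genes, as 49 windows from 250 bases before to 50 bases after a transcription start. The E-box CACGTG, which reads the same on both strands and is bound by MYC and related factors, was present in the windows of 10 of the 35 genes (28.6%). It was present in those of 753 of 6572 genes on the array (11.5%), and in 9.55% of their windows against 24.5% of the translation factors' windows. Windows of 1 gene can overlap: Eif5a had 6 of the 49, and an E-box site of it is counted in more than 1 of them. The 10 genes were Eef2, Eef2k, Eif1b, Eif3a, Eif3f, Eif3k, Eif4a1, Eif4e, Eif4h and Eif5a. A match describes these letters only and shows no bound factor. The 100 bases before the start are given for 5 genes picked by rank in the results below, none of them called. They run 5' to 3' in the direction of transcription, with the E-box in capitals. Eif1b, Eef2 and Eif3c had the smallest unadjusted p between strains under peptide, Eif3k fell furthest behind in the last-numbered arrays, and Eif5b had the smallest unadjusted p in the mean peptide response without the block. In Eif1b the E-box began 24 bases before the start, in Eef2 43 and in Eif3k 44. None was found in the windows of Eif3c and Eif5b, nor in those of Eif2b5 and Eif3b, which are not shown.
Eif1b, chr9:120492506-120492605, plus strand: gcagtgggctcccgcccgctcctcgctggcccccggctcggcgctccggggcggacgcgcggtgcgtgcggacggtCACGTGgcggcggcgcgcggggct
Eef2, chr10:81176531-81176630, plus strand: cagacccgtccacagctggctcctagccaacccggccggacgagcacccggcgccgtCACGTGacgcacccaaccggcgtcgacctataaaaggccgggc
Eif3k, chr7:28981889-28981988, minus strand: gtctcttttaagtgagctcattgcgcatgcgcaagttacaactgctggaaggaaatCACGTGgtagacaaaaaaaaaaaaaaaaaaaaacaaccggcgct
Eif3c, chr7:126566367-126566466, minus strand: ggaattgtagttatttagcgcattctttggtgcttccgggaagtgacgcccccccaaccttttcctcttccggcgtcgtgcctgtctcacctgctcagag
Eif5b, chr1:37997910-37998009, plus strand: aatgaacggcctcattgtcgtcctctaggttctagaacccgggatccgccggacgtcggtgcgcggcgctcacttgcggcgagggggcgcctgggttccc

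Peptide responses were tested with limma on log2 intensities over all 12422 probe sets, with a probe set called at a Benjamini-Hochberg adjusted p under 0.05. In B6g7, 0 of 43 translation factors were called, beside 1 of all 12422 probe sets (0.00805%). At an unadjusted p under 0.05 there were 4 of 43, beside 3.40% of all probe sets, and all 4 were higher with peptide, beside 2.26% of all. A fit that blocks the replicate numbers also called 0 of 43 (0.0242% of all), with 7 of 43 at an unadjusted p under 0.05 (7.06% of all). In NOD, limma called 0 of 43 and 0 of all probe sets (0.0% with and without the block), and 0 of 43 had an unadjusted p under 0.05 in either fit, beside 1.67% of all without and 4.62% with the block. The 43 differences in B6g7 had a median of 0.09, 28 of them above 0, beside a median of -0.005 and 48.0% above 0 for all probe sets. In NOD the median was 0.017 with 24 of 43 above 0, beside -0.025 and 42.0% for all. Differences beyond 0.5 in either direction numbered 8 of 43 (18.6%) in B6g7, beside 5.18% of all probe sets, and 1 of 43 (2.33%) in NOD, beside 1.44%. Without the last-numbered arrays they numbered 1 of 43 in B6g7 and 3 of 43 in NOD.

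**Figure D1:**
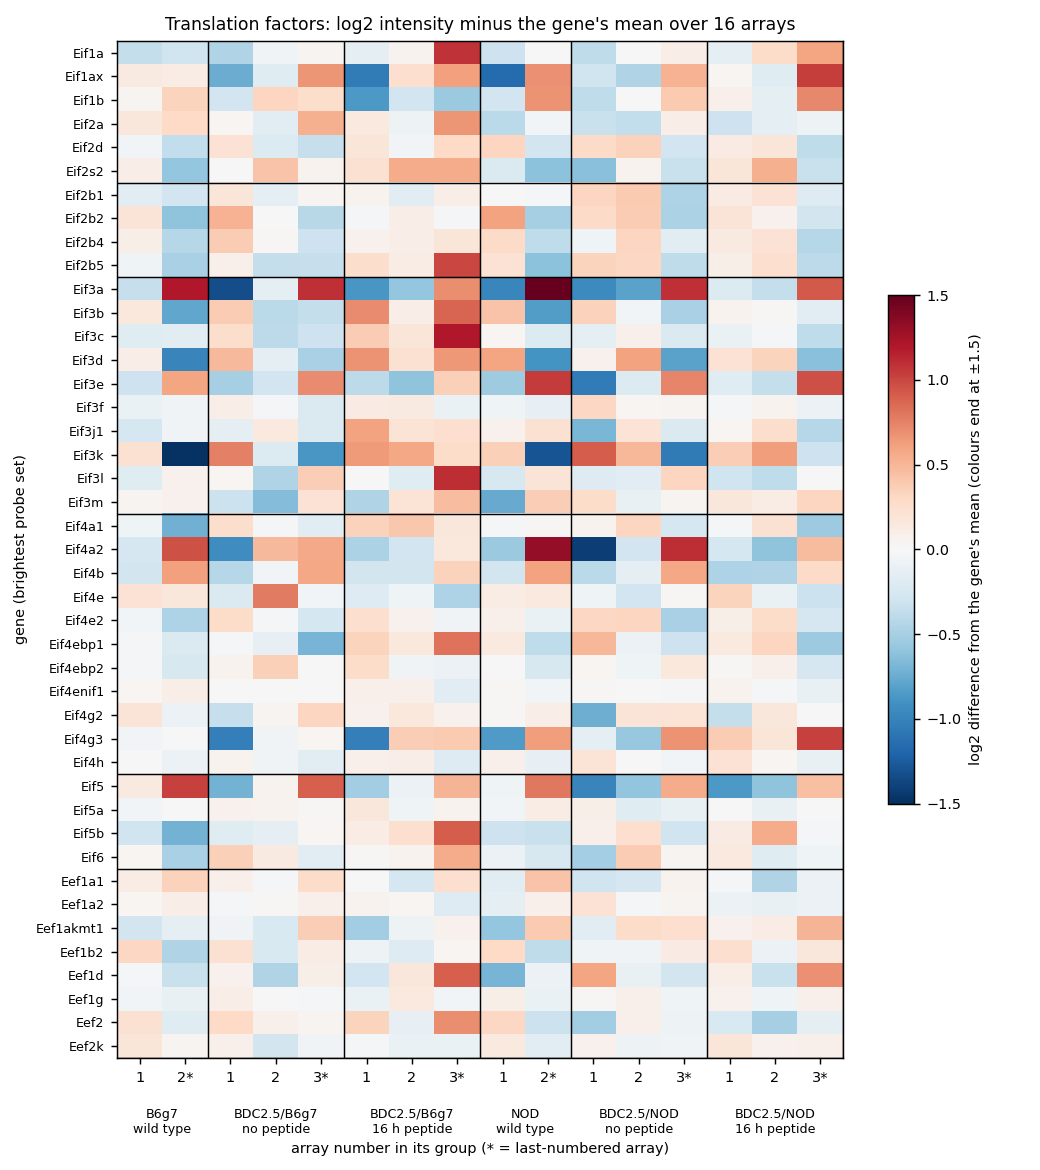
Log2 intensity of each of the 43 genes (rows, brightest probe set, in blocks by role) on each of the 16 arrays (columns, by group), as the difference from that gene's mean over the arrays; colours end at ±1.5. The last-numbered arrays, marked with an asterisk, are red for Eif3a, Eif3e, Eif4a2 and Eif5 in all 6 groups, and blue for Eif3k in all but BDC2.5/B6g7 with peptide. Replicate 3 of that group holds the highest values of Eif3c, Eif2b5, Eif4ebp1 and Eif5b.

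Among the factors of start-codon scanning and initiator tRNA delivery, 5 of 6 estimates were above 0 in each strain, with medians of 0.19 in B6g7 and 0.28 in NOD. Without replicate 3 of the peptide group, 3 of 6 were above 0 in B6g7 with a median of 0.01. Without the last-numbered arrays of all groups, 5 of 6 were above 0 in B6g7 with a median of 0.09. Eif1a, a form of eIF1A, which helps the small subunit scan, read 93.2, 123 and 131 without peptide and 116, 132 and 271 with it in B6g7. In NOD it read 98.5, 128 and 137 without and 116, 155 and 192 with peptide. The groups overlapped in both strains, and each peptide array was above the no-peptide array of the same number, in 6 of 6 pairs. The differences were 0.49 ± 0.29 (SE) in B6g7 and 0.33 ± 0.29 in NOD. Their mean was 0.41 ± 0.20 in the limma fit without the block, where the unadjusted p was above 0.05. The limma fit with the replicate block, which has its own error, gave an unadjusted p of 0.00453 and an adjusted p of 0.374. Without replicate 3 of the peptide group the B6g7 difference was 0.11, and without the last-numbered arrays 0.21. A second probe set of Eif1a gave 0.62 in B6g7 and 0.28 in NOD.

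Eif1b, a relative of the start-codon selector eIF1, was the only translation factor whose B6g7 arrays with peptide all lay below those without. It read 767, 1173 and 1126 without peptide and 515, 766 and 639 with it, a difference of -0.67 ± 0.31 (unadjusted p = 0.0501 by limma, adjusted p = 1). Left-out single arrays moved it between -0.86 and -0.52. In NOD it read 718, 939 and 1227 without and 993, 847 and 1543 with peptide, with overlap, a difference of 0.22 ± 0.31. The response in NOD minus that in B6g7 was 0.89 ± 0.44, not called.

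Eif2s2, the beta subunit of eIF2, read 37.8, 60.5 and 46.4 without and 65.9, 84.5 and 46.3 with peptide in NOD, a difference of 0.43 ± 0.25. In B6g7 it read 58.3, 78.7 and 60.5 without and 68.2, 85.4 and 85.9 with peptide, or 0.28 ± 0.25. Groups overlapped in both strains. Its second, dimmer probe set gave -0.11 in NOD and 0.31 in B6g7, the only case among the 14 genes with several probe sets where signs differed with a gap above 0.5 in a peptide response. Eif1ax, the X-linked form of eIF1A, differed by 0.02 ± 0.54 in B6g7 and 0.37 ± 0.54 in NOD. Eif2a and Eif2d, which can deliver initiator tRNA without eIF2, differed by 0.11 ± 0.22 and 0.26 ± 0.23 in B6g7 and by 0.02 ± 0.22 and -0.14 ± 0.23 in NOD.

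Of the eIF2B subunits, which return eIF2 to its active form and are held in check when stress kinases phosphorylate eIF2, only Eif2b5 departed from 0 by more than its error. This gene encodes the catalytic epsilon subunit. It read 167, 123 and 124 without and 190, 171 and 318 with peptide in B6g7, with no overlap, a difference of 0.68 ± 0.30 (unadjusted p = 0.0413 by limma, adjusted p = 1). Replicate 3 with peptide stood above the rest, and the difference was 0.40 without it. The second probe set of Eif2b5 gave 0.11. In NOD the gene read 199, 196 and 121 without and 168, 189 and 120 with peptide, or -0.11 ± 0.30. Eif2b1, Eif2b2 and Eif2b4 lay between -0.07 and 0.09 in both strains.

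The eIF3 complex, the largest initiation factor and the scaffold of the small subunit, had 10 measured subunits, of which 8 were above 0 in B6g7 with a median of 0.37. In NOD 7 of 10 were above 0 with a median of 0.07. Eif3c, a core subunit, read 521, 330 and 349 without and 563, 491 and 994 with peptide in B6g7. All 3 same-numbered pairs were higher with peptide, the groups overlapped by 1 array, and replicate 3 with peptide was the highest of all 16. The difference was 0.73 ± 0.26 (unadjusted p = 0.0130 by limma, adjusted p = 1), and 0.43 without that array. In NOD it read 395, 456 and 372 without and 406, 429 and 332 with peptide, or -0.07 ± 0.26. NOD minus B6g7 was -0.80 ± 0.36 for Eif3c, the only 1 of the 43 at an unadjusted p under 0.05 for the strain difference of the response. For that difference limma called 0 of 43 and 0 of all 12422 probe sets (0.0%, also with the block), with 1.18% of all at an unadjusted p under 0.05. The block gave 3 of 43, beside 3.64% of all.

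Eif3b, another core subunit, read 841, 489 and 503 without and 1056, 689 and 1183 with peptide in B6g7, or 0.69 ± 0.36. Its dimmer probe set gave 0.10, and NOD gave 0.03 ± 0.36. Eif3j1, which loosely joins the complex, read 542, 659 and 512 without and 902, 683 and 707 with peptide in B6g7, with no overlap, or 0.42 ± 0.24. Without replicate 3 of the peptide group it was 0.47. The other subunits had wide errors: Eif3d 0.57 ± 0.46, Eif3k 0.60 ± 0.60, Eif3l 0.33 ± 0.32, Eif3m 0.32 ± 0.31, Eif3f 0.10 ± 0.12, Eif3a -0.13 ± 0.78 and Eif3e -0.18 ± 0.54 in B6g7. In NOD these 7 ran from -0.22 (Eif3l) to 0.33 (Eif3a). Without replicate 3 of the peptide group the eIF3 median in B6g7 was 0.30, with 7 of 10 above 0. Without the last-numbered arrays it was 0.31, with 9 of 10 above 0.

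**Figure D2:**
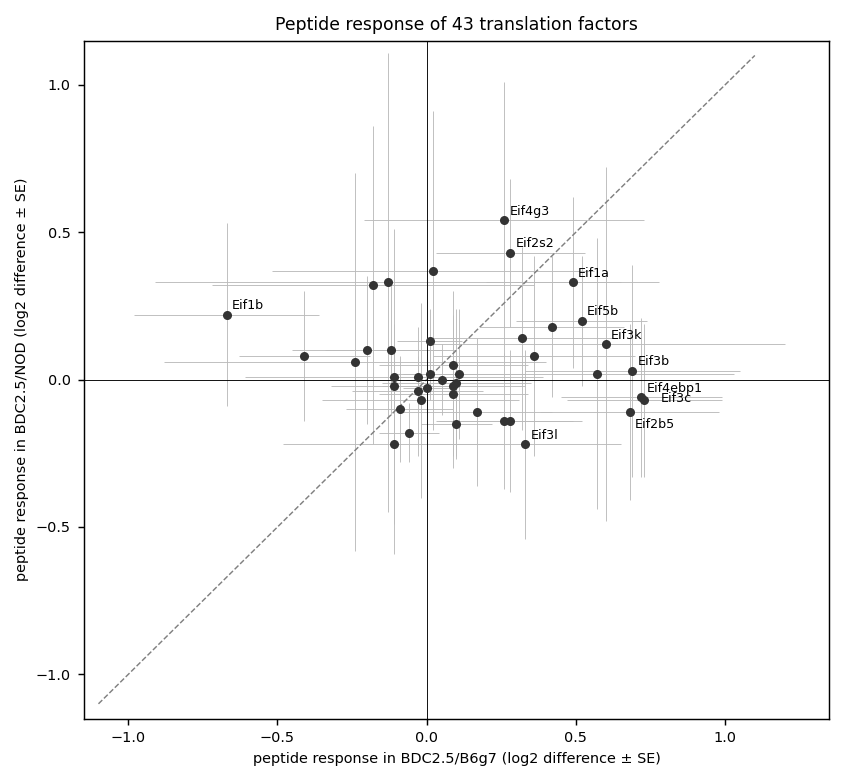
Peptide response of the 43 genes in BDC2.5/B6g7 (horizontal) and BDC2.5/NOD (vertical), each as a log2 difference between 16 h of peptide and none, with its standard error; the dashed line marks equal responses. Eif3c, Eif4ebp1, Eif2b5 and Eif3b lie at 0.68 to 0.73 in B6g7 and at -0.11 to 0.03 in NOD, and Eif1b lies alone at -0.67 in B6g7.

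Among the 11 cap-binding, scaffold, helicase and inhibitor genes, 7 were above 0 in B6g7 (median 0.05) and 4 in NOD (median -0.02). Eif4ebp1, which encodes 4E-BP1, the mTOR-regulated inhibitor that keeps eIF4E from the cap complex, read 41.7, 38.8 and 26.2 without and 53.2, 47.4 and 74.5 with peptide in B6g7. The groups did not overlap, and the difference was 0.72 ± 0.27 (unadjusted p = 0.0200 by limma, adjusted p = 1), or 0.53 without replicate 3 of the peptide group. In NOD it read 59.7, 39.9 and 34.2 without and 46.7, 53.0 and 29.1 with peptide, a difference of -0.06 ± 0.27. NOD minus B6g7 was -0.78 ± 0.38. This probe set is 1 of the 9 below the mean array median. Eif4ebp2, the related inhibitor 4E-BP2, differed by -0.09 ± 0.18 and -0.10 ± 0.18.

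The cap-binding protein gene Eif4e read 30.6, 61.0 and 34.6 without and 31.2, 34.0 and 25.9 with peptide in B6g7, or -0.41 ± 0.22. A single array, replicate 2 without peptide, lay above all others, and its second probe set gave 0.08. The helicase genes Eif4a1 and Eif4a2 differed by 0.28 ± 0.24 and -0.24 ± 0.64 in B6g7 and by -0.14 ± 0.24 and 0.06 ± 0.64 in NOD. Eif4g3, a scaffold that joins the cap to the ribosome, had the largest estimate in NOD at 0.54 ± 0.47. It read 109, 81.1 and 192 without and 157, 136 and 245 with peptide there, each array above its same-numbered partner. In B6g7 it differed by 0.26 ± 0.47. Eif4g2, a scaffold for cap-independent initiation, Eif4b and Eif4h, which help the helicase, Eif4e2, a second cap-binding protein, and Eif4enif1, which carries eIF4E into the nucleus, lay between -0.11 and 0.09 in B6g7 and between -0.22 and 0.05 in NOD.

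Of the factors at subunit joining, Eif5b had estimates above 0 in both strains. It encodes the GTPase that joins the large subunit. In B6g7 it read 92.8, 95.6 and 107 without and 113, 125 and 197 with peptide, with no overlap, a difference of 0.52 ± 0.22 (unadjusted p = 0.0373 by limma, adjusted p = 1), or 0.27 without replicate 3 of the peptide group. In NOD it read 111, 125 and 85.3 without and 114, 155 and 103 with peptide, or 0.20 ± 0.22. The mean response was 0.36 ± 0.16 (limma adjusted p = 0.998), the 1 of 43 with an unadjusted p under 0.05. The second Eif5b probe set, of nearly the same signal, gave only 0.23 ± 0.30 in B6g7 and 0.06 ± 0.30 in NOD, was higher in 2 of 3 and 1 of 3 pairs, and gave -0.09 in B6g7 without replicate 3 of the peptide group. By the brighter probe set, every same-numbered pair was higher with peptide, in 6 of 6, as for Eif1a. These were 2 of 43 genes (4.65%), beside 2.48% of all probe sets, and 0 of 43 were lower in all 6 pairs, beside 3.09%. Eif5, which makes eIF2 hydrolyse its GTP, Eif5a, which eases peptide bond formation, and Eif6, which keeps the subunits apart, lay between -0.11 and 0.10 in both strains.

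For the mean of both strains' responses limma called 0 of 43, beside 3 of all probe sets (0.0242%), and 0 of 43 with the block (0.0564% of all). At an unadjusted p under 0.05 the block gave 2 of 43, beside 7.22%, and without it the share of all was 3.58%. In this mean Eif2s2 had 0.35 ± 0.17 and Eif3c 0.33 ± 0.18, and the largest estimates were those of Eif1a (0.41) and Eif4g3 (0.40). Across the 43 genes the median was 0.055 and 28 were above 0, beside -0.017 and 42.4% for all probe sets.

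Elongation factors showed the narrowest spread of the 6 roles in B6g7, from -0.20 to 0.36, but not in NOD. There they ran from -0.18 to 0.13, against -0.11 to -0.04 for eIF2B and -0.01 to 0.20 for subunit joining. Among them Eef1a2, Eef1g and Eef2k lay below the mean array median, and Eef1akmt1 encodes a methyltransferase. Of 8 genes 3 were above 0 in B6g7 (median -0.04) and 5 in NOD (median 0.05). Eef1a1, which brings aminoacyl-tRNA to the ribosome, read 6594, 6124 and 7570 without and 6282, 5205 and 7451 with peptide in B6g7, a difference of -0.11 ± 0.21, and -0.02 ± 0.21 in NOD. Eef2, the translocase, read 1249, 1076 and 1043 without and 1282, 936 and 1653 with peptide in B6g7, or 0.17 ± 0.25, with overlap. In NOD it read 709, 1072 and 964 without and 871, 722 and 926 with peptide, or -0.11 ± 0.25. The largest estimate in B6g7 was that of Eef1d, an exchange factor subunit of eEF1A, at 0.36 ± 0.34, and 0.04 without replicate 3 of the peptide group. The exchange factor subunits Eef1b2 and Eef1g differed by -0.12 ± 0.22 and -0.03 ± 0.07, and Eef1akmt1 by -0.20 ± 0.25.

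Eef1a2, the form of eEF1A of muscle and neurons, was the only translation factor whose groups did not overlap in NOD. It read 52.6, 44.7 and 46.5 without and 42.6, 41.9 and 42.5 with peptide, a difference of -0.18 ± 0.10, at a signal below the mean array median. Eef2k, the kinase that inhibits eEF2, differed by 0.01 ± 0.11 in B6g7 and 0.13 ± 0.11 in NOD. Counted over all genes, non-overlapping groups with peptide higher were 4 of 43 (9.30%) in B6g7, beside 3.48% of all probe sets, and 0 of 43 in NOD, beside 2.33%. With peptide lower there was 1 of 43 (2.33%) in each strain, beside 3.03% of all in B6g7 and 3.20% in NOD.

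**Figure D3:**
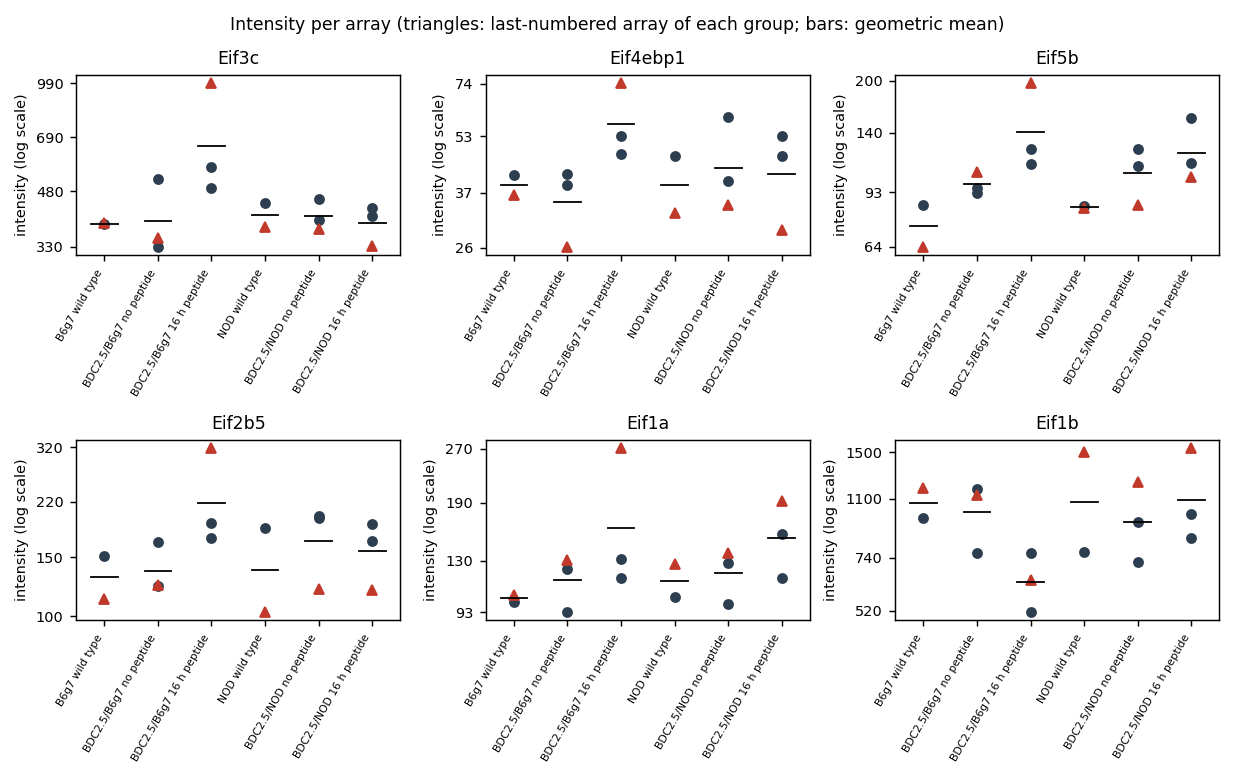
Intensity of 6 translation factors on each array by group, on a log axis; triangles are the last-numbered array of each group, circles the other arrays and bars the geometric mean. In BDC2.5/B6g7 with peptide the triangle is the highest point of all 16 arrays for Eif3c, Eif4ebp1, Eif5b, Eif2b5 and Eif1a, while for Eif1b the whole group lies low.

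Replicate 3 of BDC2.5/B6g7 with peptide stood out for this gene set. The median log2 intensity of the 43 genes was 8.09 there and 7.49 to 7.82 on the other 15 arrays. It held the highest value of all 16 arrays for 13 of 43 genes (30.2%), beside 9.20% of all probe sets. The next highest counts for a single array were 4 of 43. Without it the median response in B6g7 was 0.021, with 25 of 43 above 0 and 0 of 43 at an unadjusted p under 0.05. Leaving out that array alone keeps its same-numbered partner among the controls. Without the last-numbered arrays of all groups the B6g7 median was 0.06, with 28 of 43 above 0. Beyond 0.5 there were then 1 of 43 in B6g7 and 3 of 43 in NOD. In B6g7, Eif3c, Eif2b5 and Eif4ebp1 were then 0.34, 0.34 and 0.32. Whether the RNA or the cells of replicate 3 of BDC2.5/B6g7 with peptide differed was not tested.

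The last-numbered array of each group differed from its partners for many translation factors in a direction that repeated across groups. Of 43 genes 12 (27.9%) were higher in it in 6 of 6 groups, beside 13.6% of all probe sets, and 4 (9.30%) were lower in all 6, beside 20.5%. Mean differences beyond 1 on the log2 scale were found for 5 of 43 (11.6%), beside 3.96% of all. The 12 higher genes were Eif3a, Eif4a2, Eif3e, Eif5, Eif4b, Eif4g3, Eif3l, Eif1b, Eif1a, Eif2a, Eef1akmt1 and Eef1a1, and the 4 lower ones Eif3k, Eif2b2, Eif4e2 and Eif4h. Eif3a, the largest eIF3 subunit, read 41.0, 93.7 and 220 in B6g7 without peptide and 53.2, 59.0 and 220 in NOD without peptide. In wild types it read 81.2 and 236 in B6g7 and 52.2 and 302 in NOD, and over the 6 groups the last-numbered array was 1.75 higher on the log2 scale, from 1.19 to 2.53. Eif4a2 was 1.21 higher, Eif3e 1.17 and Eif5 1.05.

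Eif3k, a peripheral eIF3 subunit, showed the opposite: 953, 488 and 308 in B6g7 without peptide, 1053, 794 and 270 in NOD without peptide, and 659 and 202 in wild-type B6g7. It was 1.24 lower on average, from -1.76 to -0.34 by group. Subunits of the same complex thus read in opposite directions, since Eif3d and Eif3b were also lower, by -0.85 and -0.49 on average, and lower in 5 of 6 groups. For Eif3d, Eif3b, Eif2b5 and Eif4ebp1 the exception was BDC2.5/B6g7 with peptide, where the last-numbered array was higher by 0.20, 0.47, 0.82 and 0.57. Probe sets of 1 gene did not always follow each other. The brighter Eif3e probe set was 1.17 higher and the dimmer -0.04, and for Eif5b they gave -0.06 and 0.51. The beta-actin 3' to 5' signal moved with these arrays, and its part in the pattern was not tested.

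**Figure D4:**
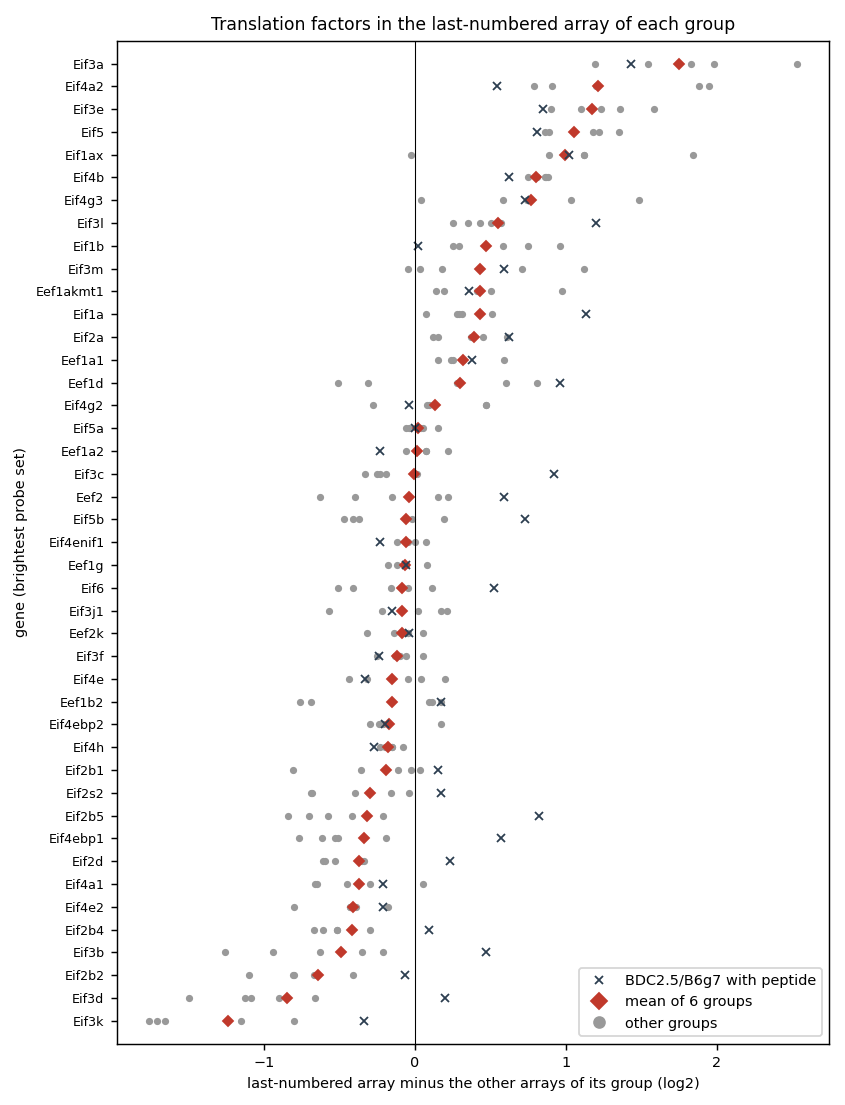
Difference between the last-numbered array of each group and the mean of its other arrays (log2, horizontal) for each gene (vertical); grey points are 5 groups, crosses BDC2.5/B6g7 with peptide and diamonds the mean of all 6. Eif3a at the top averages 1.75 and Eif3k at the bottom -1.24, and for Eif2b5, Eif4ebp1, Eif3b and Eif3d only the cross lies above 0.

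Between strains (NOD minus B6g7), estimates beyond 0.5 with all arrays were found at 16 h of peptide, for 7 of 43 (16.3%), beside 5.35% of all probe sets. They were 0 of 43 without peptide and in wild types, beside 3.52% and 2.70% of all. Without the last-numbered arrays they were 2 of 43 at 16 h and 3 of 43 without peptide, so this contrast was not kept. Wild-type estimates, then from single arrays, ran from -1.29 to 0.5. At 16 h with all arrays limma called 0 of 43, beside 61 of all probe sets (0.491%), and 0 of 43 with the replicate block (1.04% of all). At an unadjusted p under 0.05 there were 3 of 43, beside 5.68%, and 9 of 43 with the block, beside 10.4%. The median was -0.098 with 14 of 43 above 0, beside 0.006 and 51.8% for all probe sets. The comparison shares its peptide arrays with the peptide responses above. Eif3c was -0.75 ± 0.26 (limma adjusted p = 0.543) and Eef2 -0.59 ± 0.25 (adjusted p = 0.796), both with every NOD array below every B6g7 array. Eif1b was 0.79 ± 0.31 (adjusted p = 0.711), with every NOD array above. Without the last-numbered arrays these were -0.33, -0.47 and 0.55. Non-overlapping groups were 3 of 43 higher (6.98%, beside 6.45% of all) and 4 of 43 lower in NOD (9.30%, beside 5.39%). Beyond those 3 genes they were Eef2k (0.18 ± 0.11) and Eef1akmt1 (0.40 ± 0.25), higher in NOD, and Eif2a (-0.42 ± 0.22) and Eif3b (-0.59 ± 0.36), lower.

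Without peptide the strain estimates for these genes ran from -0.46 to 0.34, and whether the strains were alike was not tested. No translation factor differed by more than 0.5, beside 3.52% of all probe sets, and 0 of 43 had non-overlapping groups, beside 3.24% of all higher and 2.37% lower in NOD. With such small shares of all, 0 of 43 does not set these genes apart. Without the last-numbered arrays 3 of 43 differed by more than 0.5, in a range from -0.62 to 0.56. The median was 0.009 with 24 of 43 above 0, beside 0.029 and 60.4% for all. Limma called 0 of 43, beside 0.266% of all (0.555% with the block, again 0 of 43). At an unadjusted p under 0.05 there were 0 of 43, beside 3.45%, and 2 of 43 with the block, beside 6.53%. Eif2s2 had the smallest p with -0.46 ± 0.25, followed by Eif3f, an eIF3 subunit, with 0.18 ± 0.12.

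In wild-type cells limma called 0 of 43, beside 0.0886% of all (0.258% with the block, 0 of 43). Unadjusted p-values under 0.05 were 0 of 43, beside 2.09%, and 1 of 43 with the block, beside 3.96%. The median was 0.027 with 27 of 43 above 0, beside -0.026 and 41.3% for all. Eif2a read 121 and 132 in B6g7 and 81.2 and 105 in NOD, with no overlap, a difference of -0.45 ± 0.27. It was lower in NOD in each of the 3 strain comparisons (-0.33 ± 0.22 without peptide), and those comparisons use separate arrays. Eif4a1 was 0.38 ± 0.29 higher in NOD, and 0.02 without the last-numbered arrays. Non-overlapping groups were 3 of 43 higher and 3 of 43 lower in NOD (6.98% each), beside 6.55% and 14.3% of all.

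The BDC2.5 transgene without peptide, set against wild type, gave medians of 0.056 in B6g7 and 0.062 in NOD, beside -0.017 and 0.038 for all probe sets. Limma called 0 of 43 in each, beside 0.0805% and 0.0564% of all, and 0 of 43 with the block, beside 0.0966% and 0.0564%. There were 0 of 43 in each at an unadjusted p under 0.05, beside 1.49% and 2.0%. The block gave 5 and 4 of 43, beside 6.80% and 13.5%. Eif5b was higher in the transgenic cells of both strains with no overlap, by 0.41 ± 0.25 and 0.33 ± 0.25, from 85.2 and 64.0 in wild-type B6g7 and 84.4 and 83.4 in wild-type NOD. Its second probe set gave 0.18 and -0.17. Non-overlapping groups in B6g7 were 5 of 43 higher (11.6%, beside 4.15% of all) and 1 of 43 lower (2.33%, beside 6.91%). In NOD they were 2 of 43 higher (4.65%, beside 6.19%) and 1 of 43 lower (2.33%, beside 2.52%). The transgenic arrays here are also the controls of the peptide responses. Eef2k was -0.20 ± 0.12 in B6g7, and in NOD Eif3f was 0.22 ± 0.13 and Eif3j1 -0.38 ± 0.27. Eif5 in NOD was -0.71 ± 0.56 without the block. The limma fit with the replicate block has its own estimate and error here. It gave an unadjusted p of 9.9e-05 that did not pass adjustment (adjusted p = 0.112). That block joins array 2 of wild-type NOD to array 2 of BDC2.5/NOD without peptide. Their deviations correlated at -0.499, against 0.828 with array 3, so this p is a weak guide.

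Other genes of the translation pathway were read from a list of 63 genes, of which 50 were measured: eIF2alpha kinases, termination factors, partners of the cap and poly(A) tail, the mTOR and stress arms, hypusine enzymes, mitochondrial factors and cytoplasmic tRNA synthetases. In the peptide comparisons limma called 0 of 50. In B6g7 34 of 50 were above 0 (median 0.15), beside 48.0% of all probe sets, with 9 at an unadjusted p under 0.05, beside 3.40%. Without replicate 3 of the peptide group the median was 0.06, with 31 of 50 above 0 and 1 at an unadjusted p under 0.05. Without the last-numbered arrays the median was 0.04, also with 31 of 50 above 0. In NOD 23 of 50 were above 0 (median -0.02), with 0 at an unadjusted p under 0.05, beside 42.0% and 1.67% of all. The tRNA synthetases, which charge tRNAs with amino acids, were above 0 for 15 of 18 in B6g7 (median 0.39) and 7 of 18 in NOD (median -0.02). Without replicate 3 of the peptide group, B6g7 gave 13 of 18 and a median of 0.14, and without the last-numbered arrays 13 of 18 and 0.22. Pabpc4, a poly(A)-binding protein, is named here for the largest of the 50 estimates in B6g7. It read 178, 198 and 137 without and 370, 240 and 477 with peptide there, with no overlap, or 1.04 ± 0.26 (limma adjusted p = 0.609). Without replicate 3 of the peptide group this was 0.82. Only the brightest of its 2 probe sets was read. In NOD it differed by -0.07 ± 0.26.

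Strain separated 2 of these genes by the test, and 1 more with the replicate block. Without peptide 1 of 50 was called, beside 0.266% of all probe sets, and 2 of 50 with the block, beside 0.555%. At 16 h there were 2 of 50 in each fit, beside 0.491% and 1.04%. In wild types there were 0 of 50 in each fit, beside 0.0886% and 0.258%. Hars, the histidyl-tRNA synthetase, read 118, 110 and 157 in BDC2.5/B6g7 and 806, 768 and 356 in BDC2.5/NOD without peptide, a difference of 2.25 ± 0.35 (limma adjusted p = 0.0130). With peptide it was 1.89 ± 0.35 (adjusted p = 0.0291), and in wild types 2.05 ± 0.43 (adjusted p = 0.161). Mtif2, the mitochondrial initiation factor 2, read 190, 276 and 355 in B6g7 and 84.4, 121 and 58.6 in NOD with peptide, or -1.66 ± 0.28 (adjusted p = 0.0158). Each of these calls was lost without some single arrays. For Hars without peptide these were replicates 1 and 2 of either group, with adjusted p-values of 0.0596 to 0.0906. At 16 h, Hars lost its call without any of the replicates 1 and 2 of B6g7 or 1, 2 and 3 of NOD (0.0650 to 0.164). Mtif2 lost its call without replicates 2 or 3 of B6g7 or 1 or 3 of NOD (0.0593 to 0.0858). In these fits the difference stayed between 1.64 and 2.20 for Hars and between -1.66 and -1.40 for Mtif2. A fit of only the groups compared lost all 3 calls (0.104 to 0.130), a floor at an intensity of 32 lost Hars at 16 h (0.101), and Mtif2 without the last-numbered arrays was -1.18 (0.169). Eif2ak3, which encodes the eIF2alpha kinase PERK of the endoplasmic reticulum and is named here after its values were seen, read 44.3, 105 and 106 in BDC2.5/B6g7 and 31.3, 36.4 and 46.0 in BDC2.5/NOD without peptide, with overlap. It differed by -1.08 ± 0.30 (limma adjusted p = 0.384, or 0.0378 with the replicate block). With peptide it was -0.92 ± 0.30 (0.483, or 0.0576 with the block) and in wild types -1.18 ± 0.36 (0.909, or 0.104).

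The genes most like Eif5b and Eif1a across the 16 arrays were sought among all others, as a description with no test. Eif5b went with Lpcat3 (Pearson r = 0.918, Spearman rho = 0.829), Snrk (0.908 and 0.900) and Mrps15 (0.905 and 0.874). Eif1a went with Gpr65 (0.924 and 0.806), Ccdc58 (0.894 and 0.865) and Fam136a (0.886 and 0.855). Arrays share scaling and the last-number pattern, and without replicate 3 of BDC2.5/B6g7 with peptide r was 0.867 to 0.906 for Eif5b and 0.807 to 0.828 for Eif1a.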

How the data were processed

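Total RNA of CD4+CD8+ thymocytes had been hybridised to 16 arrays. The authors deposited linear intensity values, 1 for each probe set on each array, from 7.77 to 13168 in the probe sets tested. Their background correction, probe summary and scaling: not given in the sources used here. For testing, the deposited values were kept as scaled and taken to log2 with no pseudocount. Of 12488 probe sets, 66 controls were left out and 12422 tested. The platform annotation gave 10833 of these 1 gene, 396 several and 1193 none. All 43 gene IDs matched RefSeq with the same symbol.

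Differences were fitted with limma 3.58.1 in R 4.3.3 (eBayes with an intensity trend) on all 16 arrays with 1 mean per group, 10 residual and 3.60 prior degrees of freedom. P-values are two-sided and Benjamini-Hochberg adjusted within each comparison over all probe sets, with calls at an adjusted p under 0.05. The code was tested on simulated data. Values after ± are standard errors for differences. The number of arrays limits the precision.

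Genes, lists and the naming rule were chosen with earlier results of these data known. Named with values were the 4 genes with the smallest p in each peptide response and their mean, the 2 in each other comparison, the 5 brightest and 3 dimmest, a fixed list, and genes whose probe sets disagree; other values are given as ranges or by role.

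Titles number the arrays. Across probe sets, the deviations of BDC2.5 arrays of equal number from their group means correlated at 0.639, 0.249 and 0.600 between no peptide and peptide in B6g7, 0.608, 0.581 and 0.793 in NOD, 0.777, 0.165 and 0.842 between strains without peptide and 0.577, 0.234 and 0.569 at 16 h. All exceeded 0.1, so the numbers were taken to pair these 12 arrays, from the data and not the labels. Between no peptide and peptide within each strain, no array correlated more with an unequal number than with its own. Between strains, array 2 of NOD correlated more with array 1 of B6g7 than with array 2. The values were 0.37 against 0.165 without peptide and 0.252 against 0.234 at 16 h, so pairing of the number 2 arrays across strains is weakly based. Deviations within a group sum to 0, so the last-numbered arrays alone can produce part of this. The block was fitted by number to all 16 arrays, wild types included. Array 2 of BDC2.5/NOD without peptide correlated at -0.499 with array 2 of wild-type NOD and at -0.588 with that of B6g7. For array 1 these values were 0.678 and 0.529. In the transgene comparisons the block changes the estimates as well as their errors. Alternatives were this replicate block, leaving out each array or the last-numbered arrays, a floor at an intensity of 32, other scalings and only the groups compared.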

Additional observations from a re-analysis of the deposited data

How the results depend on the processing

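The count of translation factors called was 0 in all 9 comparisons under each alternative setting run for them, 13 to 21 a comparison, among them quantile normalization, median centring, a floor at an intensity of 32, no intensity trend, dim probe sets left out, only the groups compared and each array left out. The smallest limma adjusted p of any of the 43 under any alternative was 0.112 (Eif5, transgene difference in NOD, replicate block). With the replicate block 0 were called as well. In the BDC2.5 comparisons the replicate numbers are balanced, so the block leaves the estimates as they are (median peptide response 0.09 in B6g7) and changes their errors only. Of 2313 alternative values for 132 named differences (those in the strain and transgene differences and in the strain difference of the response added after seeing the data), 1 changed sign against a main value above its standard error: Eif3l in B6g7 was -0.07 without replicate 3 of the peptide group, against 0.33, and up to 0.57 without other single arrays. Without the last-numbered arrays of all groups this Eif3l difference was 0.12. Single arrays moved some medians over the 43 genes by more than the spread between arrays of a group (0.0718). The median peptide response in B6g7 ran from 0.021 (without replicate 3 with peptide) to 0.163 (without replicate 3 with none). NOD minus B6g7 ran from -0.123 to 0.008, the latter without the same peptide array. The transgene difference in NOD ran from -0.020 (without wild-type NOD replicate 2; -0.016 without BDC2.5/NOD replicate 2) to 0.107. Groups of 2 and 3 arrays share 1 spread in the fit, and an adjusted p above 0.05 does not show that a difference is absent.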
